A study of Rattus norvegicus with 19 samples.

Results

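The genes described here are 44 named components of the cell cycle and of DNA replication, from the cyclins and kinases of G1 through the replication helicase to the machinery of mitosis and cytokinesis. They were chosen by name, and each was read from the probe set that named it alone and had the highest mean signal over all 19 arrays. Of the 44, 41 had such a probe set, out of 14218 genes on the array that had one. Cdc6 and Tpx2 had none, and Rrm2 lay on 2 probe sets that also named Rrm2l1, so these 3 genes have no value here.

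The tissue was somatosensory cortex of male adult Wistar rats, perfused with artificial cerebrospinal fluid that carried 1 of several agents, and its total RNA was measured on Affymetrix rat expression arrays. Set 1 held 10 arrays: sodium deoxycholate (DOC, a bile salt used to open the blood-brain barrier) at 2 mM after 7, 24 and 48 h, bovine serum albumin at 0.1 mM after 8, 24 and 48 h, TGF-β1 at 10 ng/ml after 8, 24 and 48 h, and 1 sham-operated animal at 24 h, with 1 array for each treatment and time. Set 2 held 9 arrays, all taken at 24 h: albumin (3 rats), albumin given together with a TGF-βR2 antibody at 50 µg/ml and the TGF-βR1 kinase inhibitor SB431542 at 100 µM (4 rats), and sham operation (2 rats). No sham animal was taken at 7, 8 or 48 h and no sham animal received the blockers, so time after the operation and the agents' own late response cannot be told apart.

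A cell that leaves rest makes D-type cyclins, which with Cdk4 drive it through G1. The Mcm2 to Mcm7 helicase, the sliding clamp Pcna and the nucleotide enzymes Rrm1 and Tyms then copy the DNA, mostly under E2F transcription factors. Genes for mitosis, among them Cdk1, the B-type cyclins, the spindle checkpoint, kinesins and cytokinesis factors, are transcribed later in the cycle through CHR and CCAAT elements bound by DREAM, B-Myb, FoxM1 and NF-Y. Most neurons of the adult cortex do not divide, while microglia, astrocytes, precursors of oligodendrocytes and vascular cells can after injury.

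Values are deposited log2 probe set signals, on which a difference of 1 is 2-fold. Medians over all probe sets lay at 5.09 to 5.17 in set 1 and 6.05 to 6.18 in set 2, so levels were compared within a set. Every array correlated with the others of its set at a median of 0.9811 to 0.9955, the lowest being albumin replicate 2 of set 2. A gene was tested where it exceeded 4 on at least 2 arrays of its set. By that filter 34 of the 41 genes were tested in set 1 and 19 in set 2, and 5 genes (Cdk2, Mcm3, Tyms, Kif2c and Birc5) were not above 4 on any array. Only 14 of the 41 would have passed on the 7 arrays of set 1 taken before 48 h, so most of the 34 were tested because they were high at 48 h. Counts over all 41 genes, fitted without the filter, are therefore given beside those with it.

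**Figure D1:**
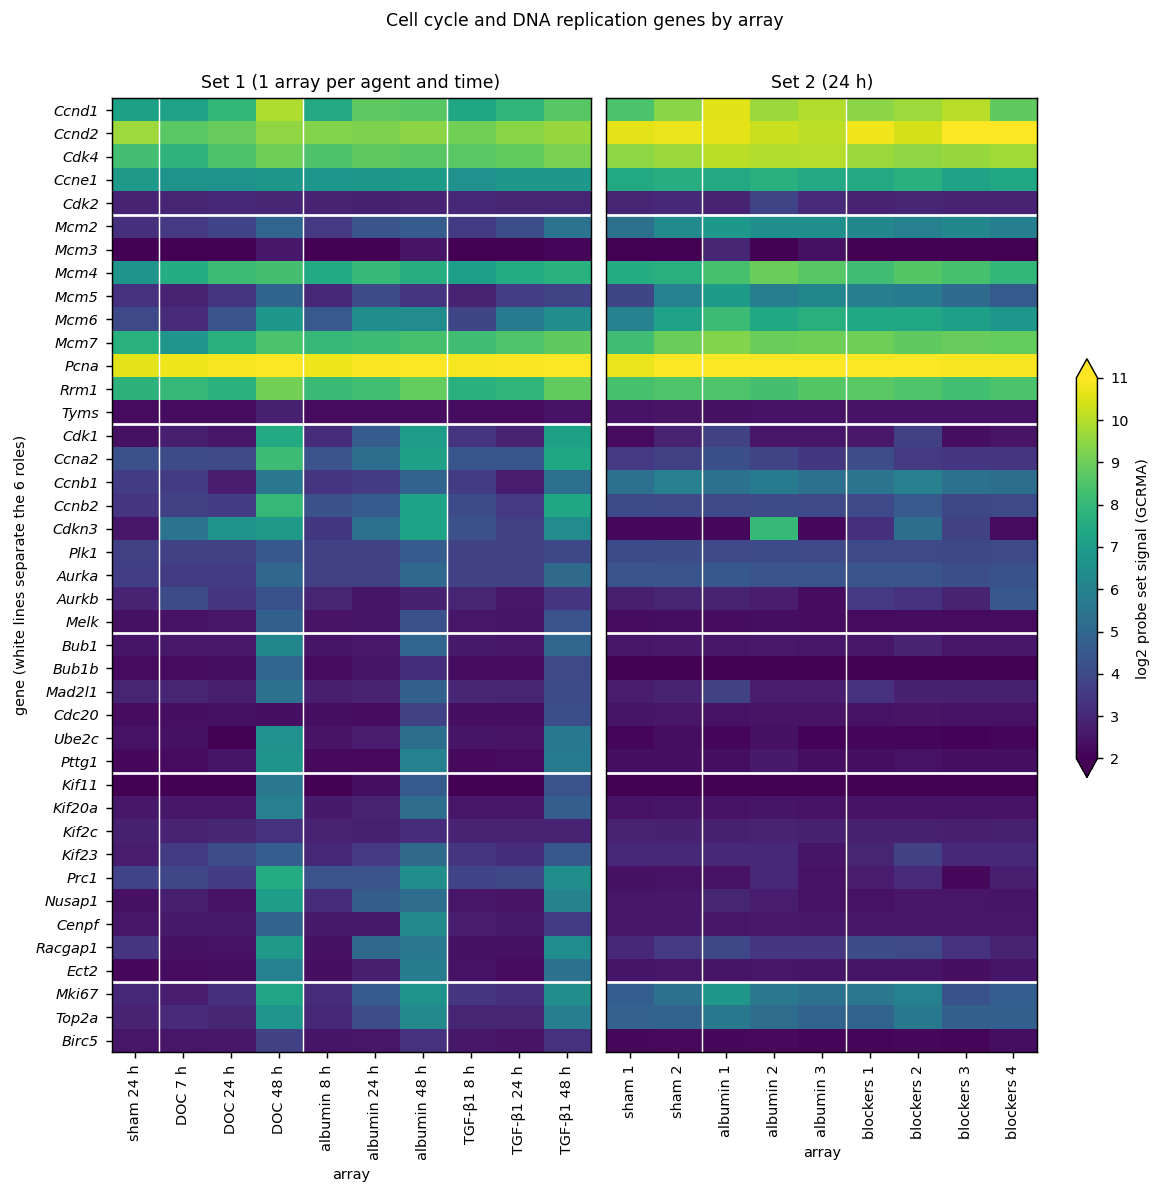
Log2 signal of the 41 genes (rows, in the order of their 6 roles) on the 10 arrays of set 1 and the 9 arrays of set 2 (columns), as colour. The 48 h columns of set 1 are brighter for most mitotic, checkpoint, spindle and proliferation genes than the other set 1 columns and set 2. Exceptions include Cdkn3, at 6.59 on the DOC 24 h array and 8.04 on set 2 albumin replicate 2, and Ccnb1, at 5.25 to 5.91 in set 2. Pcna reached 11.69 and Cdk1 went from 2.42 on the sham array to 7.49 on the DOC 48 h array.

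Cell cycle genes were higher at 48 h than at 24 h after each of the 3 agents, most steeply those of mitosis. Over all 41 genes the median difference was 1.35, against -0.01 over all 14218 genes. The 3 arrays at 48 h all lay above the 3 at 24 h for 28 of the 41, where 8.45% of all genes did the same. Fitted without the filter, 7 of the 41 passed at an adjusted p under 0.05 (Ccnb2, Aurka, Melk, Bub1, Pttg1, Kif20a and Ect2), all higher, against 0.366% of all genes. With the filter 17 of the 34 tested rose and 0 fell, where 1.3% of all genes tested rose and 0.11% fell. The other 10 (Rrm1, Cdk1, Ccna2, Ccnb1, Mad2l1, Ube2c, Kif11, Prc1, Mki67 and Top2a) no longer passed without the filter, at limma adjusted p-values of 0.0590 to 0.109. Of these 10 only Rrm1, Ccna2 and Prc1 would have been tested on the arrays before 48 h. Without the TGF-β1 24 h array 7 genes passed, and 11 did without either the DOC 24 h or the TGF-β1 48 h array. Since set 1 has 1 array per agent and time, p-values measure the scatter of 3 agents around a common time course. In bulk tissue, more dividing cells and more RNA per cell cannot be told apart.

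Against 7 or 8 h the 48 h arrays differed further. The median over the 41 genes was 1.76 and over all genes -0.00140, and the arrays did not overlap for 37 of the 41, against 11.5% of all genes. Without the filter 15 of the 41 rose (1.58% of all genes), and with it 23 of 34 rose and 0 fell (3.91% and 1.18% of genes tested). Ccnd1, Mcm2, Mcm6, Rrm1, Ccnb1, Mad2l1, Kif23, Nusap1 and Racgap1 no longer passed without the filter (adjusted p = 0.0515 to 0.123). The count was 14 without either the DOC 7 h or the albumin 8 h array. Between 7 or 8 h and 24 h, 0 of 34 passed limma's test in either direction, while 0.499% of genes tested rose and 0.299% fell. Without the filter 0 of 41 passed (0.0% of all genes each way), and at an unadjusted p under 0.05, 3 of the 41 were higher at 24 h and 1 was lower, where 6.95% and 5.46% of all genes were.

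**Figure D2:**
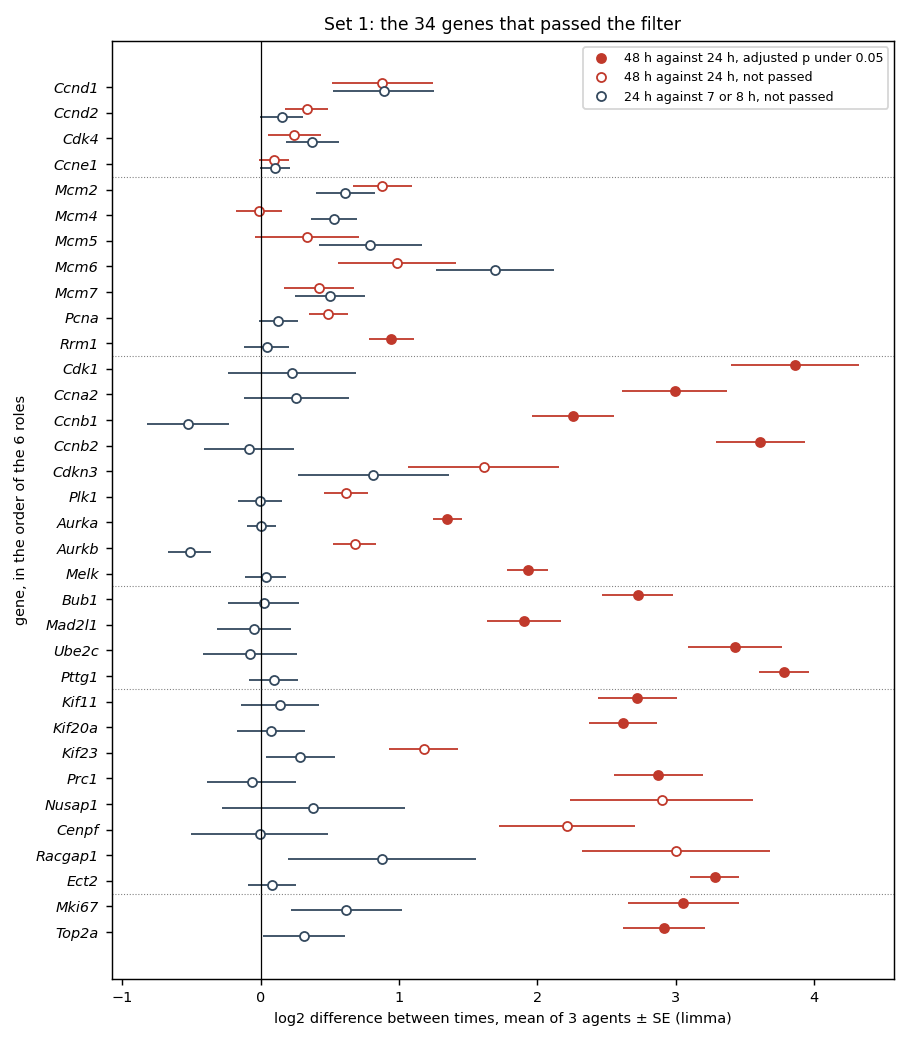
Log2 difference between times with its limma SE for the 34 genes tested in set 1, ordered by role; red is 48 h against 24 h (filled where the adjusted p is under 0.05) and dark blue is 24 h against 7 or 8 h. The filled red points are Rrm1 at 0.94 and 16 genes of the mitotic, checkpoint, spindle and proliferation roles between 1.35 and 3.86; the blue point farthest right is Mcm6 at 1.70, with Ccnd1, Racgap1 and Cdkn3 at 0.89, 0.88 and 0.81, and 0 blue differences passed.

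Of the 5 G1 cyclins and kinases 4 were above 4 on all 10 arrays of set 1, and 0 of these 4 passed between 24 and 48 h. Ccnd1, cyclin D1, stood at 7.19, 7.45 and 7.34 on the early DOC, albumin and TGF-β1 arrays, at 7.94, 8.77 and 7.92 at 24 h, at 9.92, 8.68 and 8.68 at 48 h, and at 7.11 in sham. All 9 treated arrays were above the sham array, and the albumin array was already at its highest at 24 h. From 7 or 8 h to 48 h Ccnd1 rose by 1.77 ± 0.37 (SE, n = 3 against 3, limma adjusted p = 0.0428). Ccnd2 lay between 8.69 and 9.67 on all 10 arrays and was highest in sham. Cdk4, the kinase partner of the D cyclins, lay between 7.85 and 9.18, and its difference of 0.61 ± 0.19 from early to 48 h did not pass (adjusted p = 0.131). Ccne1 moved least of the 4, from 6.57 to 6.91, and Cdk2 stayed between 2.83 and 3.01.

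The 9 DNA replication genes differed less between 24 and 48 h, with a median of 0.49 against 1.93 for the 9 mitotic cyclins and kinases, and were mixed in their timing. Between 7 or 8 h and 24 h Mcm2, Mcm4, Mcm5, Mcm6 and Mcm7 were higher by 0.50 to 1.70, while Mcm3, Pcna, Rrm1 and Tyms differed by 0.13 or less, and 0 of the 7 tested passed over that step. Mcm6, a subunit of the helicase, read 3.11, 4.52 and 3.89 early, 4.37, 6.49 and 5.75 at 24 h, 6.79, 6.36 and 6.42 at 48 h, and 3.99 in sham, in the order DOC, albumin, TGF-β1. At 24 h Mcm6 was thus at about its 48 h level on the albumin array, somewhat below it on the TGF-β1 array and far below it on the DOC array. These are single arrays, and the difference between agents was not tested. The step to 24 h was 1.70 ± 0.43 and did not pass (adjusted p = 0.165), and the whole rise to 48 h was 2.68 ± 0.43 (adjusted p = 0.0186).

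Mcm2, of the same helicase, was tightly placed early at 3.48, 3.49 and 3.54, reached 3.82, 4.38 and 4.15 at 24 h and 4.93, 4.61 and 5.45 at 48 h, with sham at 3.23. Its 3 time groups did not overlap, and it rose by 1.49 ± 0.21 from early to 48 h (adjusted p = 0.0131). Rrm1, the large subunit of ribonucleotide reductase, kept to a late step instead: 8.00, 8.13 and 7.70 early, 7.76, 8.27 and 7.93 at 24 h, and 9.11, 8.86 and 8.83 at 48 h, with sham at 7.82. It was the single replication gene that rose between 24 and 48 h, by 0.94 ± 0.16 (adjusted p = 0.0499), a value at the threshold that did not pass under 11 of 14 alternative settings. Mcm4 differed mainly before 24 h, from 7.57, 7.50 and 7.09 early to 8.18, 8.03 and 7.54 at 24 h and 8.35, 7.60 and 7.75 at 48 h, all above the sham value of 6.66. Its change from 24 to 48 h was -0.01 ± 0.17. Pcna lay between 10.62 and 11.69, and its difference of 0.62 ± 0.14 from early to 48 h did not pass (adjusted p = 0.0601). Mcm5 and Mcm7 differed by 1.12 ± 0.37 and 0.92 ± 0.25 over the same interval without passing (adjusted p = 0.149 and 0.0947), and Mcm3 and Tyms were not above 2.78 on any array of set 1.

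**Figure D3:**
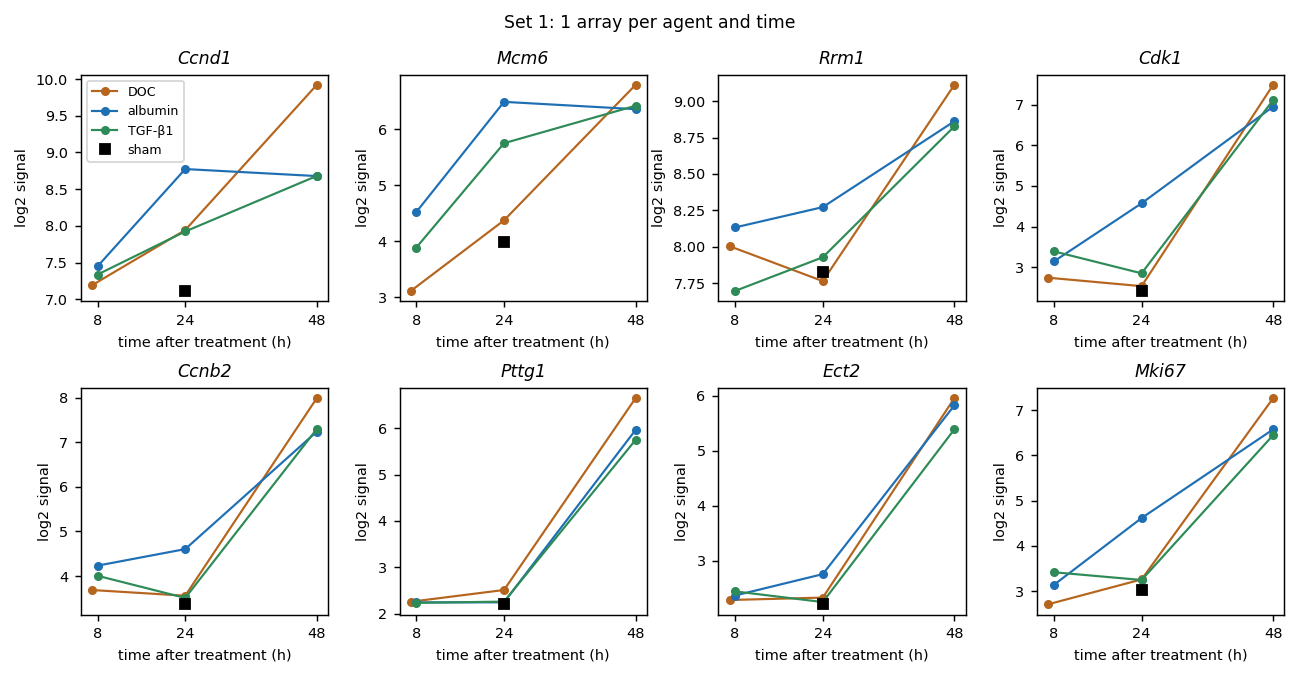
Log2 signal against time after treatment (h) for 8 genes in set 1, 1 point per array, with lines joining the arrays of an agent and a square for the sham array at 24 h. Mcm6 and Ccnd1 are higher at 24 h than at the first time after each agent and, after albumin, no higher at 48 h, while Pttg1 lies between 2.23 and 2.51 on all 6 treated arrays up to 24 h and, like Cdk1, Ccnb2 and Ect2, is higher on all 3 arrays at 48 h.

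Timing can be put as the share of the rise from 7 or 8 h to 48 h that the mean of the 3 agents had reached by 24 h. Among the replication genes the share was 41.0% for Mcm2, 70.4% for Mcm5, 63.3% for Mcm6, 54.3% for Mcm7 and 102.3% for Mcm4, but 20.7% for Pcna, 4.41% for Rrm1, 3.62% for Tyms and 1.03% for Mcm3. For Ccnd1 it was 50.2%. Among genes of the other roles that were at least 2-fold higher, the 7 mitotic cyclins and kinases had a median of 1.83% and ran from -30.4% for Ccnb1 to 33.6% for Cdkn3. The dip of Ccnb1 at 24 h was absent on its other probe set, with means of 3.07 early, 3.22 at 24 h and 6.52 at 48 h. The 6 checkpoint and anaphase genes ran from -2.72% to 4.86%. The 8 spindle and cytokinesis genes had a median of 3.81% and reached 19.5% for Kif23 and 22.7% for Racgap1, and Mki67 and Top2a stood at 16.8% and 9.73%. These shares describe means and were not tested. By the same 2-fold rule only 3 replication genes count (Mcm2, Mcm5 and Mcm6, median 63.3%). Mcm3, Mcm4 and Tyms rose by 0.59, 0.52 and 0.22 in all. Many genes of the later roles were under 4 on most arrays before 48 h, where a small early rise could go unseen.

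Cyclins and kinases of mitosis showed the late step in 6 of the 9 genes. Cdk1, the kinase that starts mitosis, read 2.74, 3.14 and 3.39 early, 2.54, 4.57 and 2.85 at 24 h, 7.49, 6.95 and 7.11 at 48 h, and 2.42 in sham. The albumin array at 24 h stood above the other arrays of its time, and the 48 h arrays did not come near any earlier one. Cdk1 rose by 3.86 ± 0.46 between 24 and 48 h (adjusted p = 0.0128), which no other of the 41 genes exceeded. Ccna2, cyclin A2, followed the same order with 4.00, 5.26 and 4.40 at 24 h and 8.17, 7.14 and 7.33 at 48 h, a rise of 2.99 ± 0.38 (adjusted p = 0.0164). Ccnb2, cyclin B2, went from 3.56, 4.61 and 3.51 to 7.99, 7.24 and 7.29, a rise of 3.61 ± 0.32 (adjusted p = 0.0060). Ccnb1, cyclin B1, was lower at 24 h (2.72, 3.58 and 2.69) than the 3.41 to 3.59 of the early arrays in DOC and TGF-β1, and reached 5.62, 4.86 and 5.30 at 48 h, a rise of 2.26 ± 0.30 from 24 h (adjusted p = 0.0189). Of these 4 only Ccnb2 also passed without the filter, at an adjusted p of 0.0471, and Ccnb1 did not pass under 6 of 13 alternative settings.

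Aurka, a centrosomal kinase, lay between 3.57 and 3.74 on the 7 arrays before 48 h, sham among them, and at 4.97, 5.01 and 5.11 at 48 h, a rise of 1.35 ± 0.10 (adjusted p = 0.0044). Melk, a kinase of dividing cells, was at 2.54, 2.51 and 2.50 at 24 h and at 4.75, 4.23 and 4.35 at 48 h (1.93 ± 0.15, adjusted p = 0.0042). Plk1 stayed below 3.75 before 48 h and read 4.47, 4.61 and 3.96 then, a difference of 0.62 ± 0.16 that did not pass (adjusted p = 0.139). Cdkn3, a phosphatase of Cdk1 and Cdk2, had already left the sham value of 2.56 at the first time, with 5.44 after DOC, 3.45 after albumin and 4.25 after TGF-β1, and read 6.85, 7.22 and 6.35 at 48 h. Its difference of 1.61 ± 0.54 from 24 to 48 h did not pass (adjusted p = 0.225). Aurkb, the chromosomal passenger kinase, was lowest at 24 h after each agent, with 4.09, 3.35 and 4.28 over the 3 times after DOC, 2.94, 2.53 and 2.84 after albumin and 2.94, 2.56 and 3.35 after TGF-β1. The DOC array was the highest at every time, and the difference of -0.51 ± 0.15 between early and 24 h did not pass (adjusted p = 0.220).

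All 6 genes of the spindle checkpoint and of anaphase were below 3 on every array before 48 h, and 4 passed the filter, all through the 48 h arrays. Pttg1, securin, which holds separase until anaphase, lay between 2.20 and 2.51 on the 7 arrays before 48 h and at 6.65, 5.97 and 5.75 at 48 h. Its rise of 3.78 ± 0.18 had the smallest adjusted p of the 41 genes (0.0013). Ube2c, an enzyme of the anaphase-promoting complex pathway, rose by 3.43 ± 0.34 to 6.55, 5.24 and 5.65 (adjusted p = 0.0074). Bub1, a checkpoint kinase, rose by 2.73 ± 0.26 to 6.12, 4.93 and 4.96 (adjusted p = 0.0062). Mad2l1, the checkpoint protein Mad2, rose by 1.90 ± 0.27 to 5.37, 4.78 and 4.10 (adjusted p = 0.0267). In each of these the DOC array was the highest of the 3. Pttg1 and Bub1 also passed without the filter, while Ube2c and Mad2l1 did not (adjusted p = 0.0590 and 0.0969), and the Mad2l1 value did not pass under 8 of 12 alternative settings. Bub1b and Cdc20 exceeded 4 on 1 array each, Bub1b at 4.95 after DOC and Cdc20 at 4.18 after TGF-β1, and were not tested.

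Spindle and cytokinesis genes moved in the same way, and 4 of the 8 tested passed between 24 and 48 h. Ect2, the exchange factor that starts the cleavage furrow, read 2.33, 2.76 and 2.25 at 24 h and 5.96, 5.83 and 5.39 at 48 h, with sham at 2.21, and rose by 3.28 ± 0.18 (adjusted p = 0.0015). Prc1, which bundles midzone microtubules, rose by 2.88 ± 0.32 to 7.53, 6.45 and 6.49 (adjusted p = 0.0106). The kinesins Kif11, which separates spindle poles, and Kif20a, which acts at the midzone, rose by 2.72 ± 0.28 and 2.62 ± 0.25 (adjusted p = 0.0091 and 0.0062). Both were below 3 on every array before 48 h. Without the filter Ect2 and Kif20a passed, and Prc1 and Kif11 did not (adjusted p = 0.0717 and 0.0601).

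Racgap1, the partner of Ect2 at the midzone, and Nusap1, which binds spindle microtubules, differed from these by a high albumin array at 24 h. Racgap1 read 2.43, 5.01 and 2.40 at 24 h, 6.88, 5.60 and 6.37 at 48 h and 3.36 in sham, so that its early arrays, at 2.39 to 2.41, lay below sham. Nusap1 read 2.43, 4.67 and 2.49 at 24 h and 7.06, 5.22 and 6.01 at 48 h. Against 24 h neither passed (adjusted p = 0.104 and 0.105), while against 7 or 8 h Racgap1 rose by 3.88 ± 0.68 (adjusted p = 0.0251) and Nusap1 by 3.28 ± 0.66 (adjusted p = 0.0402). Kif23, a further kinesin of cytokinesis, rose by 1.46 ± 0.25 over the longer interval (adjusted p = 0.0228). Cenpf, a kinetochore protein, was flat at 2.54 to 2.68 before 48 h but spread widely at 48 h, at 4.87, 6.22 and 3.52, and did not pass.

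Of the general proliferation markers, Mki67, the Ki-67 antigen, read 2.71, 3.14 and 3.42 early, 3.26, 4.62 and 3.25 at 24 h, 7.26, 6.57 and 6.45 at 48 h, and 3.03 in sham. It rose by 3.06 ± 0.40 between 24 and 48 h (adjusted p = 0.0189). Top2a, the topoisomerase of S and G2 phase, went from 2.96, 4.12 and 2.93 to 6.68, 6.23 and 5.83, a rise of 2.91 ± 0.30 (adjusted p = 0.0082). Without the filter neither passed (adjusted p = 0.0948 and 0.0601). Birc5, survivin, was between 2.46 and 2.58 before 48 h and at 3.73, 3.29 and 3.32 then. It was not above 4 on any array, and without the filter its rise of 0.91 from 7 or 8 h passed (adjusted p = 0.0337).

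E2F letters lay mostly in promoters of replication genes, CHR letters mostly in those of later roles, and CCAAT letters in both. RefSeq promoters on rat assembly GRCr8, from 250 bases before to 50 after each start, matched 34 of the 41 genes, and 33469 promoters of the same 300 bases gave the background. E2F letters, TTTCCCGC, TTTGGCGC, TTTCGCGC or TTTGCCGC on either strand, lay in 6 of 8 replication promoters (75.0%), in 1 of 7 of mitotic cyclins and kinases (14.3%, Cdk1), in 0 of the other 19, and in 2.14% of all promoters. The CHR letters TTTGAA on either strand lay in 1 of 8 replication promoters (12.5%), 4 of 7 of mitotic cyclins and kinases (57.1%), 4 of 5 of checkpoint genes (80.0%), 5 of 8 of spindle genes (62.5%) and 3 of 3 of proliferation markers, against 18.3% of all promoters. CCAAT letters on either strand lay in 6 of 8 replication promoters (75.0%), 5 of 7 of mitotic cyclins and kinases (71.4%), 2 of 5 of checkpoint genes (40.0%), 7 of 8 of spindle genes (87.5%) and 3 of 3 of proliferation markers, and in 37.5% of all promoters. Differences between the roles were not tested, and a match is not a bound site.

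The 250 bases before the start are shown for Mcm6, which has E2F letters and the largest difference before 24 h, for Cdk1, which has both kinds and the steepest rise, and for Pttg1 and Ect2, which have CHR and CCAAT letters and the smallest p-values. Capitals mark every match to E2F, CHR or CCAAT letters on either strand, and each sequence runs 5′ to 3′ along its gene's strand and ends at the base before the start. Mcm6 lies on the minus strand at chr13:42404353-42404602, Cdk1 on the plus strand at chr20:19265043-19265292, Pttg1 on the minus strand at chr10:28406327-28406576 and Ect2 on the minus strand at chr2:111966627-111966876. Melk and Aurka, next by p, held none of these letters and are not printed, and Mcm6 and Cdk1 were added after their values were seen.
Mcm6: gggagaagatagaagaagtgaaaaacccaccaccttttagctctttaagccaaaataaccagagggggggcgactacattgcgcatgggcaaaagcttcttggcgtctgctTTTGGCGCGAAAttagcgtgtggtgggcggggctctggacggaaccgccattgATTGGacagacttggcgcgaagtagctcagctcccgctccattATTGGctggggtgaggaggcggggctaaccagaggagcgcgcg
Cdk1: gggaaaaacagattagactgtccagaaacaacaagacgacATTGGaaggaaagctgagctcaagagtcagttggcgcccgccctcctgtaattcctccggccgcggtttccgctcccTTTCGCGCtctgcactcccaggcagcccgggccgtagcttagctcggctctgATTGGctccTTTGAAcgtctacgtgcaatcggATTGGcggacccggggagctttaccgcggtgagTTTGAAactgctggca
Pttg1: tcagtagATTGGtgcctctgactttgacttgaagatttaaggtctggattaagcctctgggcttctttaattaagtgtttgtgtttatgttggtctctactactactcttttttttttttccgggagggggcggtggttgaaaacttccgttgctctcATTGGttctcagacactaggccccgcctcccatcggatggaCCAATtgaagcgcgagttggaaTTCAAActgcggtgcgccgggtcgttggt
Ect2: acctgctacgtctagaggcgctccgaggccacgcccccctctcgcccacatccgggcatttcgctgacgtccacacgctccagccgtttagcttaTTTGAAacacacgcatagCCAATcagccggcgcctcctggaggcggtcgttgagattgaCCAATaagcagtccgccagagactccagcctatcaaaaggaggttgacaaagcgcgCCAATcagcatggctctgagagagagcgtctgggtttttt

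In Mcm6 a pair of E2F matches on opposite strands overlap, beginning 139 and 135 bases before the start. Cdk1 has E2F letters 133 bases before its start and CHR letters 72 and 16 bases before it. In Pttg1 the CHR letters lie on the other strand 29 bases before the start, with CCAAT letters 51 bases before it. Ect2 has CHR letters 155 bases before its start and CCAAT letters 137, 96 and 40 bases before it.

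Many cell cycle genes stood above the sham array at 48 h after each agent, while the 24 h arrays were less alike. At least 2-fold above the sham array stood 31 of the 41 genes at 48 h after DOC, 26 after albumin and 28 after TGF-β1, where 4.42%, 4.49% and 4.13% of all genes did. At 24 h the counts were 3, 12 and 2, against 4.73%, 3.64% and 1.93% of all genes. At the first time they were 2, 0 and 1, against 3.19%, 2.52% and 1.97%. The 12 on the albumin array at 24 h included Cdk1 at 4.57, Ccna2 at 5.26, Racgap1 at 5.01, Nusap1 at 4.67 and Mki67 at 4.62. That is a single array, and its excess over the other agents has no replicate in set 1.

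**Figure D4:**
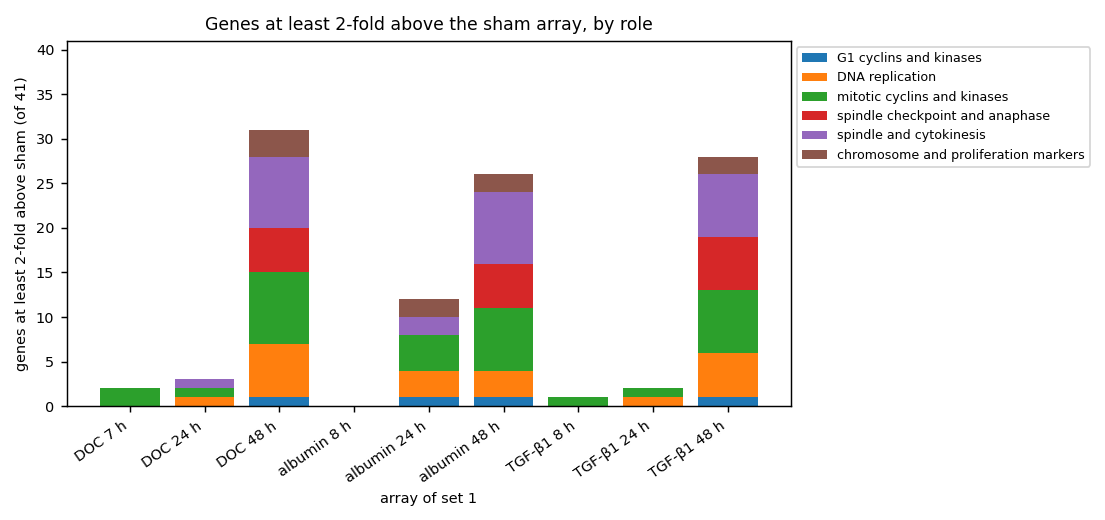
Number of the 41 genes at least 2-fold above the sham array (vertical axis, bars from 0) on each of the 9 treated arrays of set 1, coloured by role. The 48 h bars reach 31, 26 and 28; the albumin bar at 24 h is 12, and no other earlier bar exceeds 3.

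Between 24 and 48 h, 33 of the 41 genes were higher after all 3 agents and 16 were at least 2-fold higher after all 3, where 15.4% and 0.731% of all genes were. The step was largest after DOC for 32 genes, after albumin for 5 and after TGF-β1 for 4, while DOC had the largest step for 33.7% of all genes. DOC's median step over the 41 genes was 1.98, against 0.88 for albumin and 1.31 for TGF-β1. Replication genes were part of this after DOC, where all 9 were higher by a median of 0.80, after TGF-β1, where all 9 were higher by a median of 0.33, and after albumin, where 6 of 9 were higher and the median over the 9 was 0.23. The steps of single arrays were not tested against each other.

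Averaged over their 3 times, the agents were compared with the lone sham array and with each other. In all 6 comparisons 0 of the 41 genes passed limma's test without the filter and 0 of 34 with it. For DOC against sham the median over the 41 genes was 0.85, and without the filter 16 were higher and 1 lower at an unadjusted p under 0.05, where 6.56% and 9.92% of all genes were. At the adjusted threshold 0.127% of all genes rose and 0.401% fell, and with the filter 0.319% and 0.15% of genes tested. For albumin the median was 0.83, with 15 of the 41 higher and 0 lower at the unadjusted level (5.16% and 6.06% of all genes). Adjusted, 0.0844% of all genes rose and 0.211% fell, and with the filter 0.339% and 0.0299%. For TGF-β1 the median was 0.69, with 10 higher and 0 lower (4.13% and 3.46% of all genes). Adjusted, 0.0% of all genes rose and 0.0422% fell, and with the filter 0.0% each way. Over all genes these medians were 0.04, 0.02 and 0.03. The averages hold the 48 h arrays, which have no sham of their own time.

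Nearest to the threshold were Pttg1 (1.60 ± 0.25, adjusted p = 0.0579), Mcm4 (1.37 ± 0.23, adjusted p = 0.0634), Ect2 (1.32 ± 0.25, adjusted p = 0.0817) and Cdkn3 (3.73 ± 0.77, adjusted p = 0.0930) for DOC. For albumin they were Ect2 (1.44 ± 0.25, adjusted p = 0.0765), Pttg1 (1.28 ± 0.25, adjusted p = 0.101), Mcm4 (1.05 ± 0.23, adjusted p = 0.135) and Ccnb2 (1.99 ± 0.46, adjusted p = 0.147). For TGF-β1, Pttg1, Ect2, Mcm2 and Aurka had adjusted p-values of 0.225 to 0.387. Without the DOC 48 h array 2 genes passed for DOC (Pttg1, adjusted p = 0.0355, and Cdkn3, adjusted p = 0.0420) and 2 for albumin (Pttg1, adjusted p = 0.0391, and Ect2, adjusted p = 0.0444). The same omission brought Mcm6 past the threshold between early and 24 h (adjusted p = 0.0357).

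Between agents few genes of any kind passed. Aurkb was lower after albumin than after DOC by a mean difference of -1.14 ± 0.16 with no overlap of the arrays, and lower after TGF-β1 by -0.96 ± 0.16 with overlap. Neither passed (adjusted p = 0.460 and 0.0894). In albumin against DOC 0.00998% of genes tested were higher and 0.0% lower (0.00703% and 0.0% of all genes without the filter), in TGF-β1 against DOC 0.02% and 0.00998% (0.00703% each way), and in TGF-β1 against albumin 0.0% each way with and without it. At an unadjusted p under 0.05 without the filter, 1 of the 41 was higher and 1 lower in the first of these (4.68% and 2.93% of all genes), 2 were higher and 2 lower in the second (11.3% and 5.73%), and 0 in the last (5.4% and 3.16%).

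Genes of the cell cycle outside the 44 were read from a wider list of 142, of which 124 had a probe set and 87 were tested in set 1. Between 24 and 48 h 9 of the 87 rose and 0 fell, where 1.3% of all genes tested rose and 0.11% fell. They were the kinetochore genes Nuf2 (3.34 ± 0.32), Spc24 (1.49 ± 0.17) and Spc25 (2.43 ± 0.29), the checkpoint kinase Ttk (2.41 ± 0.26), the Cdk-binding subunits Cks1b (1.41 ± 0.13) and Cks2 (3.40 ± 0.35), the kinesin Kif22 (2.09 ± 0.31), Cdca3 (2.83 ± 0.48) and the Cdk inhibitor Cdkn2c (1.34 ± 0.20), with adjusted p-values from 0.0061 to 0.0488. Of the 29 other replication genes tested 0 passed, and 27 had a positive difference, with a median of 0.25 against -0.01 over all genes tested. From 7 or 8 h to 48 h 19 of the 87 rose, where 3.91% of all genes tested did. From 7 or 8 h to 24 h 0 of 87 passed, where 0.499% of all genes tested rose and 0.299% fell. The smallest p-values over that step were those of Dnmt1, Lmnb1 and Ccng2 (adjusted p = 0.114 to 0.199).

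Marker genes of cell types moved over the same interval. Of 14 microglia and macrophage markers tested 3 rose between 24 and 48 h, where 1.3% of all genes tested rose. They were Cd68 by 3.43 ± 0.23 (adjusted p = 0.0026), P2ry12 by 2.62 ± 0.35 (adjusted p = 0.0208) and Csf1r by 1.19 ± 0.20 (adjusted p = 0.0488). Vim rose among 9 reactive astrocyte markers, and Col1a2 and Lum among 9 meningeal markers. Cd14, Serpina3n and Cd44 of these lists differed by -0.24, -1.30 and -0.34 without passing. For Serpina3n all 48 h arrays lay below all 24 h arrays. The summed linear signal of the microglia list was 2490.4 in sham, 2042.5 to 4695.2 early, 5462.8 to 9746.0 at 24 h and 13738.1 to 16417.9 at 48 h. For the reactive astrocyte list it was 5384.8, 3221.9 to 9219.3, 16964.5 to 21081.8 and 24531.4 to 27721.6. At 24 h 10 of the 14 microglia markers and all 9 reactive astrocyte markers lay above sham on all 3 arrays. These counts rest on the lone sham array and have no share of all genes beside them. Cell cycle genes were mixed at 24 h. Pttg1, at 2.24 to 2.51, and Aurka, at 3.58 to 3.73, lay within 0.31 of sham. Mcm4, Ccnd1, Mcm6 and Cdkn3 were above sham on all 3 arrays, by 0.88 to 1.52, 0.81 to 1.66, 0.39 to 2.50 and 1.13 to 4.03. The 3 brightest genes carried 72.3% of the microglia sum at that time (Gpnmb, Lyz2 and Lgals3) and 89.5% of the astrocyte sum (Gfap, Vim and S100a10). P2ry12, at 6.02 to 8.09, lay below its sham value of 8.88 on all 3 arrays, and Csf1r, Cx3cr1 and C1qa were on both sides of sham. From 7 or 8 h to 48 h 12 of the 14 microglia markers rose, 6 of the 9 reactive astrocyte markers and 4 of the 9 meningeal markers, where 3.91% of all genes tested rose.

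The lists of other cells that could divide had no marker that passed between 24 and 48 h. For oligodendrocyte precursors the summed signal was 3451.4 in sham, 2283.1 to 3747.7 at 24 h and 3527.7 to 4445.0 at 48 h, with 0 of 4 markers passing. For endothelium and pericytes it was 2150.4, 1743.5 to 2570.4 and 2457.2 to 3266.6, with 0 of 9. For neural progenitors it was 1714.3, 1049.0 to 1534.2 and 1593.5 to 1945.4, with 0 of 4. Eomes and Neurog2 were not above 4 on any array. All 48 h arrays lay above all 24 h arrays for Pdgfra (0.67), Prom1 (1.98), Cldn5 (0.90) and Rgs5 (1.01). They lay below them for Pecam1 (-0.47). Of all genes 8.45% had all 48 h arrays above. From 7 or 8 h to 48 h, however, 5 of the 9 endothelial and pericyte markers rose (Tek, Cldn5, Vwf, Rgs5 and Abcc9, by 0.77 to 1.70, adjusted p = 0.0151 to 0.0432), and 0 of 4 in each of the other lists did. Over that interval 3.91% of all genes tested rose. Flt1 and Kdr, also endothelial, differed by -0.38 and -0.37 without passing. Of the 8 neutrophil and lymphocyte markers, Cd3e, Cd4, Cd79b and Ms4a1 were not above 4 on any array, and the summed signal was 80.3 to 165.5 at 48 h against 72.9 in sham. The neuron list stood at 58552.3 in sham and 49601.4 to 56069.7 at 48 h, so neuronal markers of the labelled tissue were present throughout. The part of any of these lists in the rise of the cell cycle genes was not tested.

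Set 2 held replicates at 24 h only. The genes tested there were 4 of G1, 7 of replication, 6 mitotic cyclins and kinases and 2 proliferation markers. Among these, which the filter had narrowed, the smallest p-values with albumin were those of replication and G1 genes. Counts over the 41 genes lay near the shares of all genes. Of the 19 genes tested 0 passed limma's test for albumin against sham, where 0.958% of genes tested rose and 0.368% fell, and without the filter 0 of 41 passed, where 0.127% of all genes rose and 0.0633% fell. At an unadjusted p under 0.05 without the filter, 6 of the 41 were higher and 0 lower (10.5% and 7.36% of all genes). Over the 41 genes the median was 0.05, against -0.02 for all genes, and 6 had all albumin arrays above both sham arrays, against 16.5% of all genes. Mcm4 read 8.37, 8.97 and 8.66 after albumin, 8.25, 8.63, 8.37 and 7.97 after albumin with blockers, and 7.56 and 7.63 in sham. Every treated array lay above both shams, albumin exceeded sham by 1.07 ± 0.22 (adjusted p = 0.0588), and without blockers replicate 4 the value passed (adjusted p = 0.0485). Cdk4 read 10.07, 9.98 and 9.99 after albumin, 9.64, 9.50, 9.62 and 9.76 with blockers, and 9.46 and 9.65 in sham. Here the albumin arrays lay above all the others, by 0.46 ± 0.11 over sham (adjusted p = 0.0784).

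Pcna and Mcm6 were ordered likewise but with wider scatter. Pcna stood at 11.31, 11.48 and 11.18 after albumin, at 10.92 to 11.11 with blockers and at 10.72 and 11.03 in sham, a difference of 0.45 ± 0.14 (adjusted p = 0.123). Mcm6 stood at 8.17, 7.41 and 7.68, at 6.74 to 7.40 with blockers and at 6.0 and 7.18 in sham, a difference of 1.16 ± 0.37 (adjusted p = 0.138) that became 0.57 without sham replicate 1 and 1.76 without sham replicate 2. The sham arrays differed between themselves in several of these genes, replicate 1 being the lower: Mcm5 read 3.90 and 5.98, Ccnd1 8.47 and 9.40 and Mcm2 5.34 and 6.28. Cdkn3 was at 8.04 on albumin replicate 2 and at 2.19 on the other albumin arrays.

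**Figure D5:**
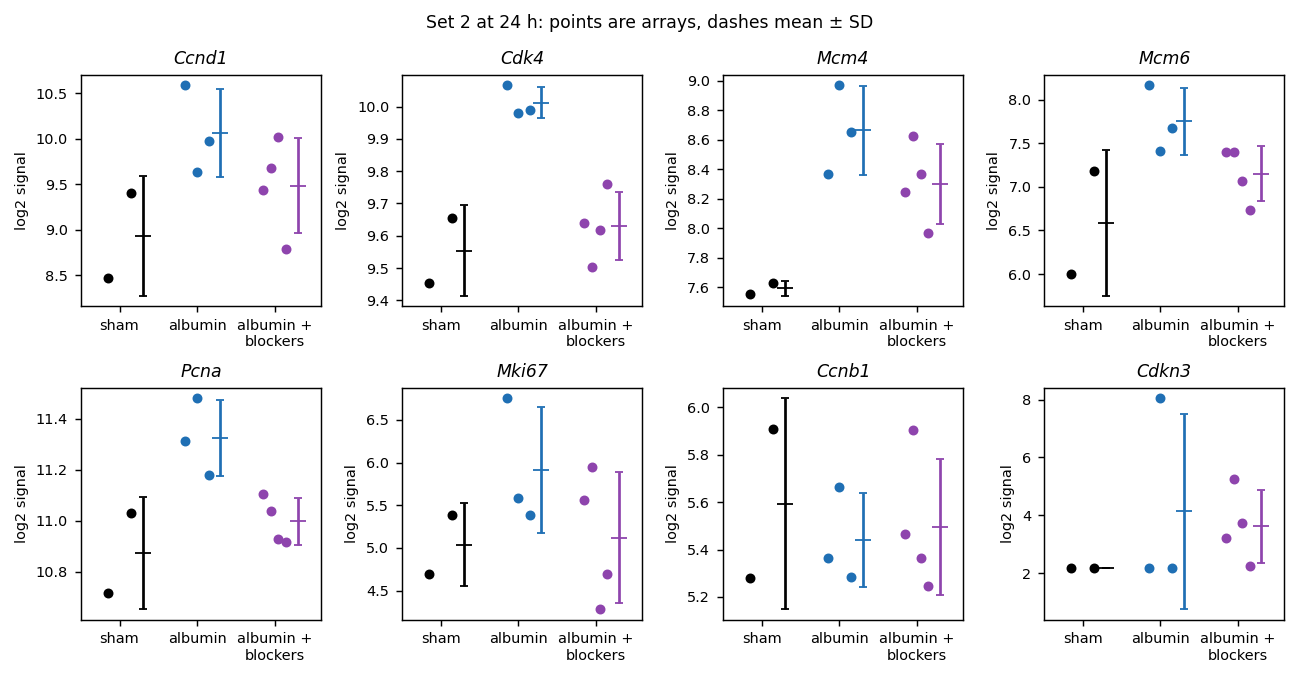
Log2 signal of 8 genes in set 2 at 24 h by group: sham (2 arrays), albumin (3) and albumin with blockers (4); points are arrays and dashes with bars are mean ± SD, on axes that do not start at 0. Albumin arrays lie above both shams for Ccnd1, Cdk4, Mcm4, Mcm6 and Pcna, overlap them for Ccnb1, and for Cdkn3 a single albumin array stands at 8.04.

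With the TGF-β receptor blockers 0 of the 19 genes passed against albumin, at 0.0% of genes tested higher and 0.0194% lower, and 0 passed against sham, at 0.0% each way. Without the filter 0 of 41 passed in either, where 0.0% of all genes were higher and 0.00703% lower than with albumin and 0.0% each way against sham. At an unadjusted p under 0.05 without the filter, 4 of the 41 were lower and 2 higher than with albumin alone (7.76% and 6.25% of all genes), and 1 was higher and 1 lower than in sham (2.79% and 2.75%). All 9 replication genes had lower means with blockers than with albumin alone, by a median difference of -0.36. For Tyms and Rrm1 the means were nearly equal, and Mcm3 and Tyms were not above 4 on any array. That count was not tested and has no share of all genes beside it. It also rests on the albumin arrays that were compared with sham, so it is no separate evidence of a difference. Cdk4 differed by -0.38 ± 0.09 (adjusted p = 0.155), Pcna by -0.33 ± 0.11 (adjusted p = 0.237) and Mcm2 by -0.55 ± 0.22 (adjusted p = 0.271). Ccnd2 went the other way, by 0.54 ± 0.20 (adjusted p = 0.261), with 10.81, 10.41, 11.15 and 11.13 against 10.63, 10.29 and 10.10. Against sham the blocker group was nearest to the threshold in Mcm4, at 0.71 ± 0.21 (adjusted p = 0.9999).

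Checkpoint and spindle genes showed little signal in set 2. No checkpoint or spindle gene passed the filter there, and Pttg1 lay at 2.32 to 2.63, Ect2 at 2.37 to 2.55, Melk at 2.26 to 2.33 and Kif11 at 1.87 to 1.96 over all 9 arrays. Of the genes with more signal, Ccnb1 lay at 5.25 to 5.91 and Mki67 at 4.28 to 6.75. Among mitotic genes the albumin and sham arrays overlapped in all 9.

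At 24 h albumin can be seen in both sets, as a single array over a single sham in set 1 and as 3 rats over 2 in set 2. Over the 41 genes 22 were higher than sham in both, as were 30.0% of all genes. At least 2-fold higher were 12 in set 1, 5 in set 2 and 4 in both, against 3.64%, 3.44% and 2.09% of all genes, and the 4 are 33.3% of the first list and 80.0% of the second. One of the 4 is Cdkn3, whose set 2 mean rests on albumin replicate 2, and without it the counts were 4 in set 2 and 3 in both. The other 3 are Ccnd1, Mcm4 and Mcm6. Mcm5 was at least 2-fold higher in set 2 only, with 0.77 in set 1. Mcm2, Cdk1, Ccna2, Ccnb2, Racgap1, Nusap1, Mki67 and Top2a were at least 2-fold higher in set 1 only. Their differences in set 2 ran from 0.0033 for Ccnb2 to 0.87 for Mki67.

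Outside the 44 genes, set 2 had 3 of 82 other cell cycle genes higher with albumin, and 0 lower, where 0.958% of all genes tested rose and 0.368% fell. Gadd45a, a stress gene that restrains the cycle, read 10.16, 10.98 and 10.28 after albumin, 8.92, 9.35, 9.69 and 7.96 with blockers and 7.61 and 7.85 in sham, and rose by 2.74 ± 0.47 (adjusted p = 0.0455). Gadd45g, of the same family, rose by 3.97 ± 0.73 (adjusted p = 0.0487) from 7.19 and 7.76 in sham to 9.85, 12.23 and 12.24. Myc, a transcription factor of growth, rose by 3.53 ± 0.62 (adjusted p = 0.0469) from 4.97 and 5.64 to 8.65, 9.81 and 8.05. With blockers all 3 were lower than with albumin alone and did not pass (adjusted p = 0.116 to 0.172). The 3 genes were picked for their high values on the same albumin arrays, which favours a lower value in the blocker group. That comparison is therefore no separate evidence of a difference. The microglia list in set 2 summed to 12127.6 to 21198.5 with albumin, 6557.5 to 10085.7 with blockers and 4903.6 to 8389.1 in sham, and the meningeal list to 4051.3 to 6717.2, 7989.5 to 19226.1 and 20339.0 to 29687.2. The part of either in these differences was not tested.

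Of the 41 genes 11 had several probe sets, and these did not all move alike. The other probe sets of Ccnb1, Nusap1 and Top2a were higher at 48 h than at 24 h by 3.30, 2.19 and 1.08, and those of Ccnd1 by 1.06 and 1.15. The second probe sets of Kif11 and Racgap1 moved by 0.45 and 0.42 at levels under 2.7, the others of Mad2l1 by 0.21 and 0.97, that of Kif23 by -0.05, and 3 of the 5 of Cdc20 by no more than 0.01 either way. Kif2c moved by 0.23 on the probe set used and by 1.19 on the other.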

How the data were processed

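Per the submitters' processing notes, the authors used GCRMA for the log2 probe set signals they deposited. GCRMA subtracts background by probe sequence and normalises arrays to a common distribution, which compresses low values. Of 31099 probe sets, 20832 named 1 gene in the platform table. For each of 14218 genes the probe set with the highest mean was used. Each comparison is a contrast of limma (version 3.58.1, under R 4.3.3; lmFit, eBayes, two-sided, Benjamini-Hochberg over all genes tested, 10330 in set 2 and 10019 in set 1). Set 1 was fitted as treatment plus time, and set 2 with 3 groups sharing 1 spread. The script was tested on simulated data. Members and lists were chosen with earlier results of these data known. Genes named were those past the threshold in any comparison and the 4 smallest p in each; others are summarised or were chosen after their values were seen. Alternatives were the filter, the probe set rule, the prior, array centring, the block, the groups fitted, the time term and leaving out each array. Replicate numbers were checked: albumin and blocker arrays of like number correlated at 0.22, 0.22 and 0.05 in their deviations. Pairs of like number with a sham array correlated at -0.14 to 0.14. Only pairs of like number were compared, so the check cannot settle whether the numbers pair the samples. The main fit did not use them. The number of arrays limits the precision. Tables used pandas 2.3.3 under Python 3.11.15, and plots matplotlib 3.10.9.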

Additional observations from a re-analysis of the deposited data

Results flagged for a closer look

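In set 2 the 4 arrays of albumin with blockers held 1 array far from the others in 2 of the 19 genes tested, and in both it was blockers replicate 2. Ccnb2 stood at 4.53 there against 3.97 on each of the others, and Top2a at 5.65 against 4.76 to 4.85. The gap divided by the range exceeded the limit of Dixon's test for 4 arrays, which chance exceeds in about 1 of 20 groups. Racgap1 lay below the sham array on all 3 early arrays and above it on all 3 at 48 h, and the difference between these times was 3.88 (limma adjusted p = 0.0251).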

How the results depend on the processing

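The medians over the 41 genes moved by less than their spread between arrays under every alternative run. From 24 to 48 h they ranged from 1.03 to 1.41, but medians near 0 changed sign: -0.01 to 0.13 for albumin against sham and -0.04 to 0.10 for blockers against sham in set 2, and -0.01 to 0.22 for 24 h against early. The same held for albumin against DOC (-0.21 to 0.17), TGF-β1 against DOC (-0.31 to 0.05) and TGF-β1 against albumin (-0.19 to 0.05). Counts of genes past the threshold moved more. Between 24 and 48 h 17 passed, 7 without the filter, 1 with a mean above 5 and 7 to 17 without one array; from 7 or 8 h to 48 h 23 passed, 15 without the filter, 4 with a mean above 5 and 14 to 23 without one array. A stricter mean left 11 of the 41 tested. Without one array the counts ranged from 0 to 1 for early against 24 h and for albumin against sham in set 2, and from 0 to 2 for DOC and for albumin against sham in set 1; the other comparisons kept 0. With the replicate block, 0 genes passed in each of the 3 comparisons of set 2. Without sham replicate 1 the blocker group lay below sham in Mcm6 (-0.0308 against 0.56) and Mcm7 (-0.0745 against 0.29); without sham replicate 2 it lay above, at 1.16 and 0.65. Of the values of named genes under alternatives, 1008 kept direction and side of the threshold, 97 no longer passed, 6 newly passed and 2 reversed. Over all genes, 137 passed for albumin against sham in set 2 (1 to 191), 141 between 24 and 48 h (35 to 173) and 510 from early to 48 h (167 to 620). Low signals limit what can be seen, since 20 of the 41 genes were not above 4 in set 2.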
